A study of Drosophila melanogaster with 6 samples.

Results

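The neuropeptide precursor genes of Drosophila melanogaster were followed in adult heads by poly(A)-selected RNA sequencing. The 34 genes were taken by symbol from the deposited table of 11836 genes, and all 34 were found there. Mutant heads, from flies homozygous for Prp31_P18, gave 3 libraries, and heads of the control line w gave 3 more. The genotype of the controls is given as white, after the eye colour gene. Prp31 belongs to the tri-snRNP, the spliceosome unit that joins U4, U6 and U5, and the study set out to model a human retinal degeneration caused by mutations in its counterpart. RNA for a library was drawn from a pool of 50 heads, taken at the age of 2 days and kept at 25 °C, and both sexes entered the series. Neither the proportion of the sexes in a library nor the w allele of the mutant line is given in the sources used here. Nothing says that the 3 libraries of a group stem from separate cultures. The p-values therefore reflect only how far these libraries spread, which may be technical.

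A neuropeptide gene encodes a precursor that enters the secretory pathway, is cut at basic residues by the convertase amontillado, trimmed by the carboxypeptidase silver and, for most peptides, amidated at its end. The mature peptides are packed in dense core vesicles and act mainly on G protein-coupled receptors. In the fly head many of these genes are transcribed in small, fixed sets of brain neurons or in the neurosecretory cells of the pars intercerebralis and pars lateralis, so a transcript can be scarce in whole heads and yet abundant in its own cells. In whole-head RNA, fewer cells of a type and less RNA per cell cannot be told apart.

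Values are FPKM, reads scaled by gene length and by library depth, as computed by the authors. Fold changes are differences of log2(FPKM + 1) between mutant and control heads, which understate changes of low genes. A gene was tested where its mean over the 6 libraries was at least 1 FPKM, and called where limma gave a Benjamini-Hochberg adjusted p under 0.05 over the 8465 genes tested. The labels give an average of 28 M (mega) reads per sample. The spacing of the low values placed the libraries at about 23.1 to 25.9 M reads assigned to genes, and read numbers below are estimates from these depths and annotated exon lengths. Prp31 itself had 13.8 ± 0.362 FPKM in Prp31_P18 and 14.0 ± 0.113 FPKM in w heads (SD, n = 3 each), and what P18 changes in the transcript is not given in the labels. Control replicate 3 stood apart: Pearson's r of its log2 values, taken across genes, was 0.980 and 0.978 with control replicates 1 and 2, where that pair had 0.996. Genes are not independent replicates. The yolk protein genes Yp1, Yp2 and Yp3 summed to 17149 to 45658 FPKM in the mutant libraries, against 3582 and 3972 FPKM in control replicates 1 and 2 and 19399 FPKM in control replicate 3. The 7 fat body markers summed to 17558 to 46557 FPKM in mutant libraries and to 3774, 4188 and 19866 FPKM in control replicates 1, 2 and 3. Of 6 tested 1 was called higher, beside 3.53% of all genes. Before adjustment limma had 5 higher and 0 lower at p under 0.05, with a median log2 fold change of 1.66. No share of all genes before adjustment is given, for this list or for those below. The 5 muscle markers found summed to 730 to 959 FPKM in Prp31_P18 and 1040 to 2051 FPKM in w heads. Of these 2 were called lower, beside 7.81% of all genes. Before adjustment limma had all 5 lower at p under 0.05, with a median log2 fold change of -0.93. As a check of the tissue label, photoreceptor markers were abundant, with a sum of 21965 to 28110 FPKM in Prp31_P18 and 18531 to 21849 FPKM in w heads. Midgut markers were scarce, with 4 genes found of 9 listed and sums of 3.85 to 5.07 FPKM in Prp31_P18 and 3.64 to 4.92 FPKM in w heads.

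Eh, SIFa, Dh31, Tk, Capa, Lk and Gpb5 were lower in Prp31_P18 heads, and 0 neuropeptide precursor genes were higher. They are 7 of the 26 members tested, or 26.9%, where 7.81% of all genes tested were called lower. The members were chosen with earlier results of these data known, so the shares are no independent test of the set. Of the 7, Eh passed the bound for testing only through its control values. Members called higher were 0 of 26, where the share of all genes was 3.53%. Without adjustment limma had 1 member higher and 11 lower at p under 0.05. The shares of all genes are at adjusted p, so these unadjusted counts have no share beside them. The largest decreases were those of Eh, the eclosion hormone gene, and of SIFa, the gene of a peptide that acts on feeding and courtship. In 10 of the 26 members, 38.5%, every mutant value lay below every control value, where 21.8% of all genes did so, and in 0 members did every mutant value lie above, where 9.46% did. The median log2 fold change of the 26 was -0.17, beside -0.07 for all genes tested and -0.18 for 9 pan-neuronal markers.

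**Figure D1:**
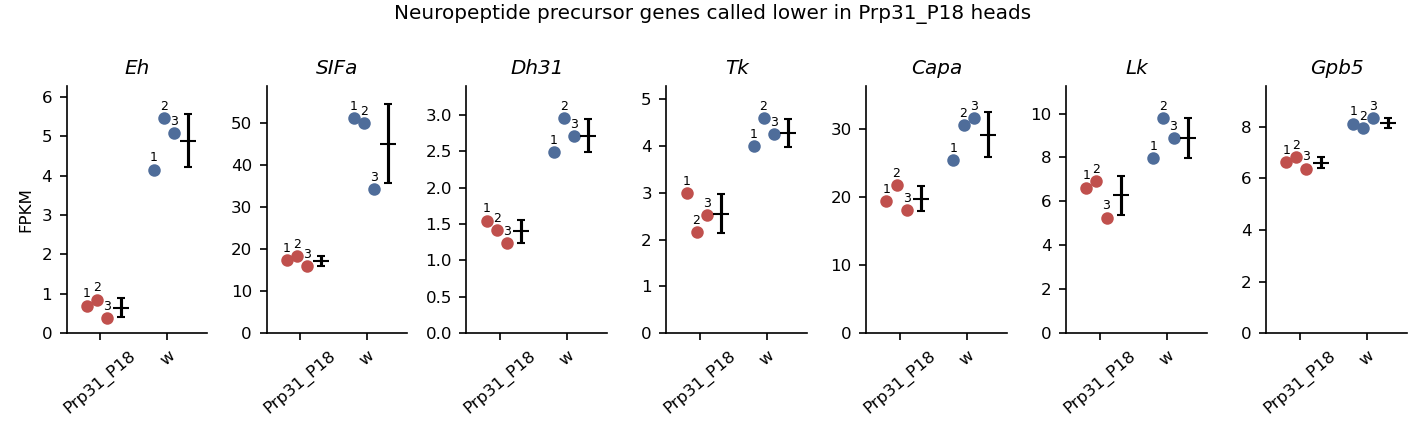
FPKM (vertical axes, each from 0) of the 7 called neuropeptide precursor genes in each library of Prp31_P18 (red, left) and w (blue, right) heads; numbers are replicates, and bars beside the points are the mean ± SD of 3 libraries. In every panel the mutant libraries lie below the control libraries, and in SIFa control replicate 3 lies below the other controls.

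Levels spanned a wide range. Nplp2, first described as a neuropeptide-like precursor and secreted into the haemolymph by the fat body, was the most abundant, with 2741, 2742 and 4491 FPKM in Prp31_P18 and 1909, 1911 and 3763 FPKM in w heads. It made up 87.5% to 92.5% of the summed FPKM of the 34 genes in mutant and 83.0% to 89.3% in control libraries. Without it the other members summed to 364 to 393 FPKM in Prp31_P18 and 375 to 449 FPKM in w heads, ranges that overlap. The next in order were Dsk, Ms, SIFa, Trissin and Capa by the mean over all libraries. SIFa, Trissin and Capa are neighbours in that order, and their order differs between the groups: SIFa had 17.2 ± 1.24 FPKM and Capa 19.8 ± 1.82 FPKM in mutant heads, against 45.2 ± 9.44 and 29.3 ± 3.28 FPKM in control heads. The 8 members with a mean under 1 FPKM were CCHa1, ETH, AstCC, Pburs, Akh, Burs, RYa and amn. They had about 0 to 24 reads in a library, and were not tested.

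**Figure D2:**
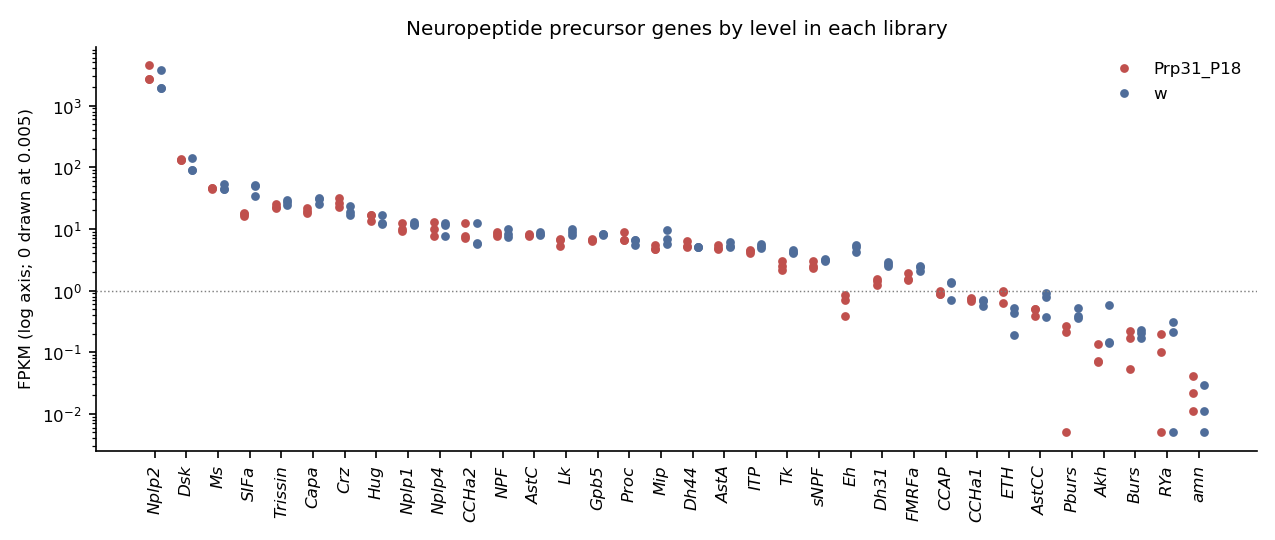
FPKM (log axis, with 0 drawn at 0.005) of the 34 neuropeptide precursor genes in each Prp31_P18 (red, left) and w (blue, right) library, ordered by the mean over all 6. The dotted line is the bound of 1 FPKM for testing, and 8 genes lie below it on average. By group means Eh and CCAP lie below it in mutant heads alone.

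The ecdysis and eclosion genes had the largest single difference. Eh encodes eclosion hormone, which acts in the brain and nerve cord to trigger the motor programme of ecdysis and is known from a pair of ventromedial brain neurons of developing flies. Eh (FBgn0000564, 3R, 17446642 to 17448858, build BDGP6) had 0.696, 0.854 and 0.385 FPKM in mutant heads, against 4.15, 5.46 and 5.08 FPKM in control heads. All mutant libraries were far below all control libraries, with about 7 to 15 reads in mutant and 67 to 93 reads in control libraries. The means, 0.645 ± 0.239 FPKM in Prp31_P18 and 4.90 ± 0.671 FPKM in w heads, differ 7.59-fold, and the log2 fold change was -1.85 (SE 0.14, limma adjusted p = 0.000237). Eh passed the bound for testing only through its control values. With a pseudocount of 0.1 in place of 1 the log2 fold change was -2.79, and the call held in all alternatives in which Eh was tested.

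The other ecdysis genes were scarce in these heads, aged 2 days. CCAP, the cardioacceleratory peptide gene, had 0.909 ± 0.0623 FPKM in Prp31_P18 and 1.14 ± 0.375 FPKM in w heads (log2 fold change -0.15, limma adjusted p = 0.513), and its mean passed the bound for testing through control replicates 1 and 3. Burs and Pburs encode the subunits of bursicon, the hormone of cuticle hardening. Burs had 0.053 to 0.221 FPKM in Prp31_P18 and 0.169 to 0.231 FPKM in w heads, about 1 to 3 reads in every library. Pburs had 0.270, 0.210 and 0 FPKM in mutant heads and 0.512, 0.355 and 0.387 FPKM in control heads. The groups of Pburs did not overlap, yet the values rest on about 0 to 4 reads in mutant and 5 to 6 in control libraries.

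ETH, the ecdysis triggering hormone gene, had 1.00, 0.932 and 0.631 FPKM in Prp31_P18 and 0.434, 0.526 and 0.191 FPKM in w heads. It was the only one of the 34 members whose mutant values all lay above the control values, on about 12 to 19 reads in mutant and 4 to 9 in control libraries. The same held for 8.8% of all 11836 genes and for 7.12% of those under 1 FPKM. When genes of all levels were tested the log2 fold change of ETH was 0.42, with a limma adjusted p of 0.0769, and that of Pburs was -0.30 (limma adjusted p = 0.117). In the annotation, 683 of the 755 exon bases of ETH are shared with an antisense RNA gene, asRNA:CR43257. The sources used here do not say if counting heeded the strand, so reads of the pair cannot be told apart.

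Peptides of water and ion balance were lower in 4 of 6 members, beside 7.81% of all genes, and their median log2 fold change was -0.35. The count rests on several libraries and settings, and so does the number of all 8465 genes called lower. Without control replicate 3 the count was 5, beside 1383 of all genes. It was 2 without mutant replicate 2 or control replicate 1, beside 476 and 268. Without mutant replicate 1, mutant replicate 3 or control replicate 2 it was 1, beside 362, 318 and 342. With no bound for testing it was 2, beside 690 of 11835 genes. It was 2 with median-ratio or quantile scaling, beside 454 and 467 of 8465. A bound of 5 FPKM gave 1 of 4 tested, beside 417 of 6145 genes. With pan-neuronal scaling it was 1, beside 182 of 8465, and with the yolk protein covariate it was 0, beside 310. With that covariate, which itself differed between the groups, the median log2 fold change was -0.31. These peptides act on the Malpighian tubules and hindgut. Dh31, the gene of a calcitonin-like diuretic hormone that also acts in sleep and gut muscle, is at 2L, 8491868 to 8506845. Dh31 had 1.55, 1.42 and 1.23 FPKM in mutant heads and 2.49, 2.95 and 2.71 FPKM in control heads. The groups were well apart, at -0.63 on the log2 scale (SE 0.09, limma adjusted p = 0.00587). The ratio of its group means was 0.515, and the call was lost in the fit with a yolk protein covariate (log2 fold change -0.59, SE 0.13, limma adjusted p = 0.0521).

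Capa, whose precursor holds capability peptides and a pyrokinin, is at 3R, 29912991 to 29914346. It had 19.5, 21.8 and 18.2 FPKM in mutant heads, against 25.5, 30.6 and 31.6 FPKM in control heads. The groups did not overlap, with control replicate 1 nearest to the mutants (-0.54 on the log2 scale, SE 0.11, limma adjusted p = 0.0187). The call of Capa was lost with libraries scaled by pan-neuronal markers (log2 fold change -0.35, limma adjusted p = 0.507), and without mutant replicate 1 (0.0665), mutant replicate 3 (0.0741) or control replicate 2 (0.0736). It was also lost with the yolk protein covariate, where the log2 fold change was -0.59 (SE 0.15, limma adjusted p = 0.0809).

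Lk encodes leucokinin, a diuretic peptide of brain and abdominal neurons that also acts in feeding. It had 6.63, 6.93 and 5.26 FPKM in Prp31_P18 and 7.96, 9.78 and 8.88 FPKM in w heads, which did not overlap. The log2 fold change was -0.44 (SE 0.11, limma adjusted p = 0.0471), just inside the threshold. It missed the threshold with each other scaling, at either other bound for testing, with the yolk protein covariate, and on leaving out any 1 of the libraries save control replicate 3 (limma adjusted p 0.0620 to 0.153). With the yolk protein covariate the log2 fold change was -0.35 (SE 0.16). Lk (3L, 14560139 to 14560764) lies 0.600 Mb from Prp31 on the same arm, and variants linked to P18 cannot be told apart from it. Of its 626 exon bases, 582 are shared with asRNA:CR44843 on the opposite strand.

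Gpb5, the gene of the beta subunit of a glycoprotein hormone whose receptor is Lgr1, is at 2L, 23311700 to 23312464. It had 6.64, 6.83 and 6.37 FPKM in mutant heads, against 8.13, 7.94 and 8.33 FPKM in control heads. The groups were narrow and apart, and the change was the smallest of the 7 (-0.26 on the log2 scale, SE 0.07, limma adjusted p = 0.0448). Like Lk, it missed the threshold with each other scaling, bound and the yolk protein covariate, kept its call on leaving out control replicate 3 and lost it on leaving out any 1 of the others (limma adjusted p 0.0838 to 0.177). Under scaling by pan-neuronal markers its log2 fold change was -0.09 (limma adjusted p = 0.864), and with the yolk protein covariate it was -0.27 (SE 0.09).

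The remaining members of this set were not called. ITP, the ion transport peptide gene, had 4.30, 4.56 and 4.02 FPKM in Prp31_P18 and 5.25, 5.68 and 4.85 FPKM in w heads. These groups did not overlap, at -0.24 on the log2 scale (limma adjusted p = 0.110), and without control replicate 3 the adjusted p was 0.0471. Dh44, the gene of a corticotropin-releasing factor-like diuretic hormone, had 5.54 ± 0.678 FPKM in Prp31_P18 and 5.06 ± 0.0650 FPKM in w heads (log2 fold change 0.11, limma adjusted p = 0.473).

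Among 14 peptides of feeding and metabolism 11 were tested, 2 were lower and 0 higher, beside 7.81% and 3.53% of all genes, with a median of -0.11. Without control replicate 3 there were 2 lower and 2 higher, beside 1383 and 838 of all 8465 genes. Without mutant replicate 3 or control replicate 2 there was 1 lower, beside 318 and 342 of all 8465 genes. SIFa encodes a peptide made in a few large neurons of the pars intercerebralis that project through most of the brain. SIFa (FBgn0053527, 2R, 24577566 to 24578143) had 17.4, 18.4 and 15.9 FPKM in mutant heads, against 51.2, 50.0 and 34.3 FPKM in control heads. The mutant values lay close together, and the lowest control, replicate 3, was still above all of them. The log2 fold change was -1.32 (SE 0.15, limma adjusted p = 0.00221), on about 211 to 233 reads in mutant and 467 to 622 in control libraries. It was -1.50 against control replicates 1 and 2 and -0.95 against control replicate 3. The call held in all 15 alternatives, with log2 fold changes between -1.50 and -0.92. SIFa shares 111 of 526 exon bases with Start1 on the opposite strand, which had 11.7 ± 0.581 FPKM in Prp31_P18 and 13.2 ± 0.771 FPKM in w heads and was not called (limma adjusted p = 0.225).

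Tk, the gene of the tachykinin precursor, which holds several related peptides of brain and gut acting in olfaction, aggression and lipid metabolism, is at 3R, 11994175 to 12005473. Tk had 2.99, 2.16 and 2.52 FPKM in mutant heads. In control heads it had 3.995, 4.59 and 4.26 FPKM, with no overlap. The log2 fold change was -0.58 (SE 0.10, limma adjusted p = 0.0138). The call was lost under scaling by pan-neuronal markers (limma adjusted p = 0.122), and without mutant replicate 3 (0.0534) or control replicate 2 (0.0547). It was also lost under the yolk protein covariate, where the log2 fold change was -0.59 (SE 0.16, limma adjusted p = 0.0866).

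**Figure D3:**
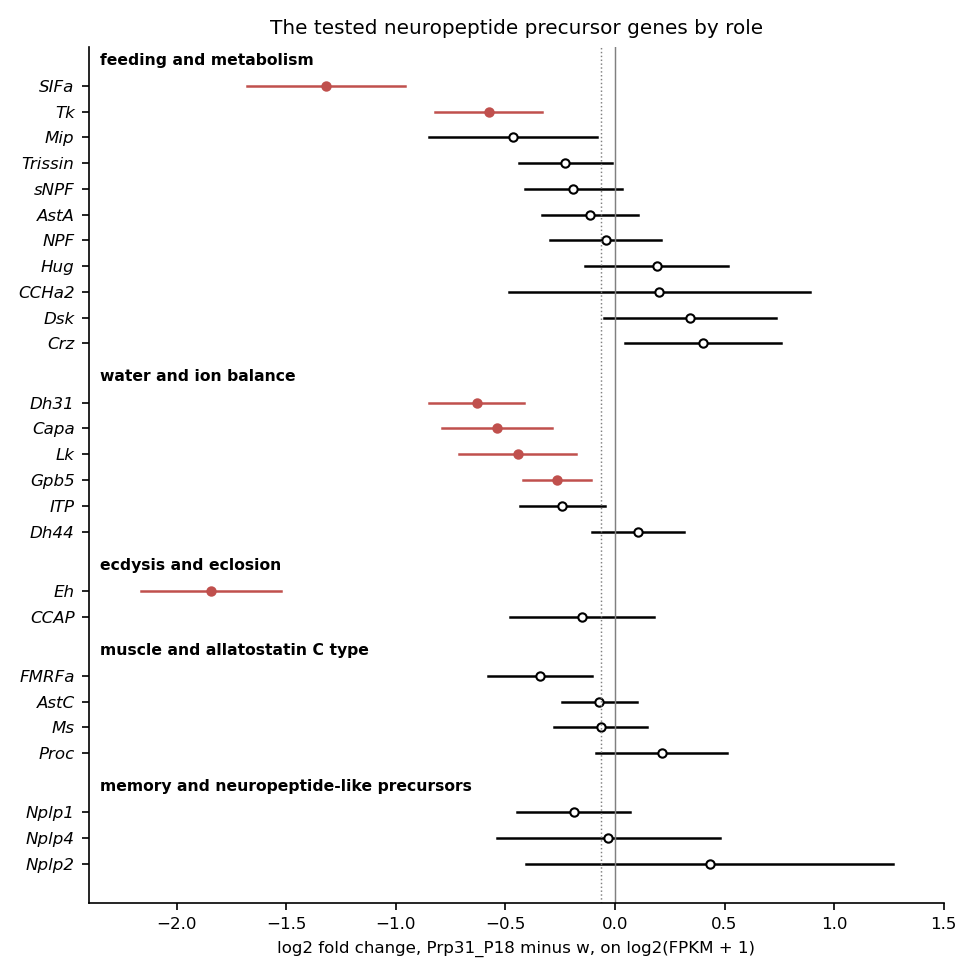
Log2 fold change of Prp31_P18 over w heads (horizontal axis, on log2(FPKM + 1)) with its 95% confidence interval from limma for the 26 tested neuropeptide precursor genes, by role. Filled red points are the 7 called lower, open points were not called, and the dotted line marks the median of all genes tested (-0.07).

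The other feeding and metabolism peptides did not pass the test. Mip, the gene of myoinhibitory peptides, had 5.52, 4.67 and 4.76 FPKM in Prp31_P18 and 5.74, 6.76 and 9.71 FPKM in w heads. Its groups did not overlap, but control replicate 3 was far above the other controls, and the log2 fold change of -0.46 was not called (limma adjusted p = 0.121). With the yolk protein covariate it was -0.80 and called (limma adjusted p = 0.0468). Mip lies 2.19 Mb from Prp31 on 3L. Trissin, the gene of a cysteine-rich peptide, had 22.2, 21.6 and 24.9 FPKM in Prp31_P18 and 24.7, 27.1 and 29.1 FPKM in w heads, which overlapped narrowly (log2 fold change -0.23, limma adjusted p = 0.159).

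Crz and Dsk had higher means in mutant heads. Crz encodes corazonin, a stress and metabolic peptide related to gonadotropin-releasing hormone, and had 31.2, 26.3 and 22.3 FPKM in mutant heads. In control heads it had 19.0, 17.0 and 23.8 FPKM, and control replicate 3 lay within the mutant range. The log2 fold change was 0.40 (SE 0.15, limma adjusted p = 0.142). Dsk, the gene of drosulfakinin, a cholecystokinin-like satiety peptide, had 138, 133 and 129 FPKM in Prp31_P18 and 90.4, 91.5 and 139 FPKM in w heads. Control replicate 3 was at the level of the mutants, and the log2 fold change of 0.34 was not called (limma adjusted p = 0.236). Without control replicate 3 both were called higher, Crz at 0.53 (limma adjusted p = 0.0275) and Dsk at 0.55 (0.00202).

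CCHa2, the gene of a nutrient-dependent peptide of fat body and gut, had 7.09, 7.59 and 12.5 FPKM in Prp31_P18 and 5.95, 5.69 and 12.2 FPKM in w heads. Mutant replicate 3 and control replicate 3, the highest of their groups here, also had the highest yolk protein sums of their groups. The log2 fold change was 0.20 (limma adjusted p = 0.689), and with the yolk protein covariate it was -0.62 and called lower (0.0326). Its mean difference thus changed direction with that covariate. Nplp2 followed the same libraries, at 0.43 on the log2 scale (SE 0.36, limma adjusted p = 0.467), at -0.42 with the yolk protein covariate (limma adjusted p = 0.263), and at 0.76 without control replicate 3 (limma adjusted p = 0.0386). The part of fat body RNA in these values was not tested beyond this covariate, which itself differed between the groups. Nplp2 lies 1.8 Mb from Prp31 on 3L.

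The remaining tested peptides of this set were NPF, sNPF, AstA and Hug. NPF and sNPF, the genes of long and short neuropeptide F, had 8.20 ± 0.536 and 2.64 ± 0.378 FPKM in mutant heads, against 8.53 ± 1.30 and 3.14 ± 0.121 FPKM in control heads. AstA, the allatostatin A gene, had 5.03 ± 0.415 FPKM in Prp31_P18 and 5.53 ± 0.600 FPKM in w heads. Hug, the hugin gene, which links taste and feeding, had 15.7 ± 1.91 FPKM in Prp31_P18 and 13.7 ± 2.56 FPKM in w heads. The log2 fold changes of these 4 lay between -0.19 and 0.19. Akh, the adipokinetic hormone gene of the corpora cardiaca, which lie behind the brain, had 0.135, 0.070 and 0.071 FPKM in mutant heads and 0.146, 0.142 and 0.579 FPKM in control heads. These groups did not overlap, on about 1 to 2 reads in mutant and 2 to 8 in control libraries. RYa was listed at 0 in mutant replicate 1 and control replicate 3 and at no more than 0.306 FPKM elsewhere. CCHa1 had 0.717 ± 0.0321 FPKM in Prp31_P18 and 0.650 ± 0.0711 FPKM in w heads.

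None of the peptides of muscle and of the allatostatin C type was called. Of 5 members 4 were tested and 0 called, beside 11.3% of all genes, with a median log2 fold change of -0.07. Ms, the gene of myosuppressin, an inhibitor of visceral muscle, had 46.1, 45.6 and 43.7 FPKM in Prp31_P18 and 44.9, 44.3 and 53.1 FPKM in w heads, which overlapped. Its log2 fold change was -0.07, with a 95% interval of -0.28 to 0.15. FMRFa, whose precursor yields several FMRFamide-related peptides acting on muscle, had 1.89, 1.55 and 1.46 FPKM in Prp31_P18 and 2.05, 2.495 and 2.45 FPKM in w heads. Its groups did not overlap, and its log2 fold change of -0.34 came nearest to the threshold among members not called (SE 0.10, limma adjusted p = 0.0747). Proc, the proctolin gene, had 7.43 ± 1.37 FPKM in Prp31_P18 and 6.24 ± 0.661 FPKM in w heads (log2 fold change 0.21, limma adjusted p = 0.318). AstC had 7.91 ± 0.337 FPKM in Prp31_P18 and 8.36 ± 0.510 FPKM in w heads, and its neighbour AstCC 0.463 ± 0.0670 FPKM in Prp31_P18 and 0.681 ± 0.273 FPKM in w heads.

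Of the memory gene amn and the neuropeptide-like precursors 3 were tested and 0 called, beside 11.3% of all genes. amn, named after the amnesiac memory mutant, had at most 0.041 FPKM, about 0 to 4 reads in a library. Nplp1 had 10.5 ± 1.69 FPKM in Prp31_P18 and 12.1 ± 0.690 FPKM in w heads (log2 fold change -0.19, limma adjusted p = 0.307). Nplp4 had 7.77, 13.2 and 9.93 FPKM in mutants, against 11.4, 12.6 and 7.55 FPKM in controls (log2 fold change -0.03, limma adjusted p = 0.943). In both groups of Nplp4 the libraries spread more than the means differed.

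The 19 tested members without a call had log2 fold changes between -0.46 and 0.43. In 18 of them the 95% interval lay within a 2-fold change in either direction on this scale, and the exception was Nplp2, with -0.41 to 1.27. The half-width of the interval was 0.17 to 0.84, with a median of 0.26. These intervals are not adjusted for the number of genes tested, so a call with 3 libraries a group needed a difference larger than the half-width. FMRFa, at -0.34 with an interval of -0.58 to -0.10, was not called.

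The 7 called members were below control replicates 1 and 2 and below control replicate 3 alike. Of the 26 tested members 7 had opposite signs against the 2 sets of controls, and in 6 of these the mutants were above control replicates 1 and 2 and below control replicate 3. Control replicate 3 was above the mean of the other controls in 19 of 26 members, by a median of 0.12 on the log2 scale. Without control replicate 3, 3 members were called higher, Crz, Dsk and Nplp2, and 8 lower, the 7 and ITP. Of all 8465 genes tested, 838 were higher and 1383 lower in that fit, against 299 and 661 with all libraries. Without mutant replicate 1, 2 or 3 the members called lower were 4, 5 and 3, beside 362, 476 and 318 of all genes. Without control replicate 1 or 2 they were 5 and 3, beside 268 and 342 of all genes. Eh, SIFa and Dh31 were among the members called lower on leaving out each library.

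**Figure D4:**
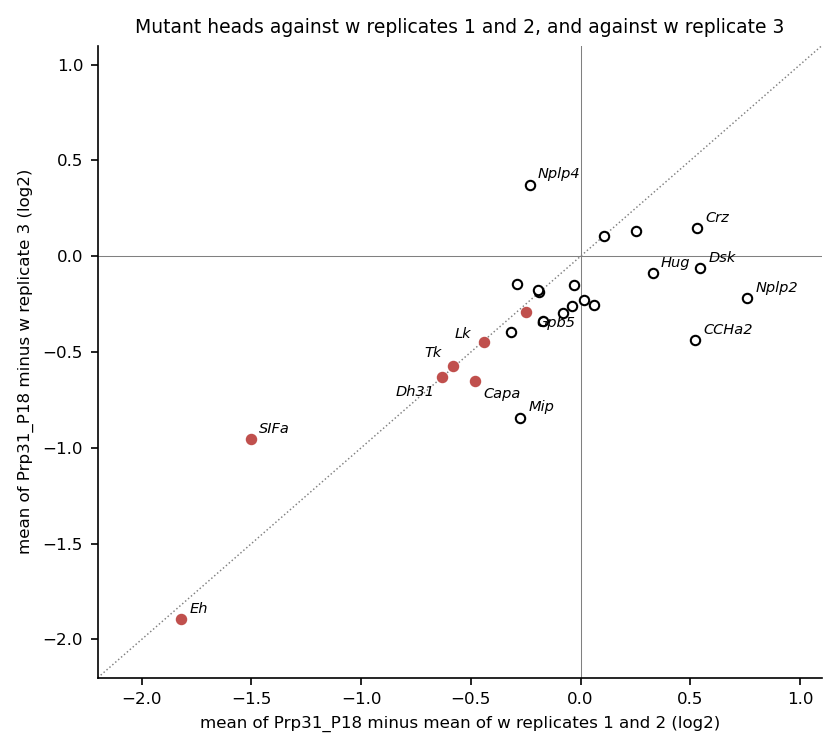
Mean log2(FPKM + 1) of Prp31_P18 heads minus that of w replicates 1 and 2 (horizontal) and minus that of w replicate 3 (vertical) for the 26 tested members; both axes share the mutant libraries. The 7 called genes (filled) are below 0 on both axes, while Dsk, Hug, Nplp2 and CCHa2 are above 0 on the horizontal and below 0 on the vertical axis.

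Pan-neuronal transcripts varied between libraries and had a lower sum in mutant replicates 2 and 3 than in any control. The 10 pan-neuronal markers, such as the synaptic genes nSyb and brp, summed to 309, 248 and 238 FPKM in mutant and 311, 348 and 287 FPKM in control libraries. Of the 9 tested 0 were called by limma, beside 11.3% of all genes, and before adjustment 2 were lower and 0 higher at p under 0.05. nSyb had 95.9 ± 11.3 FPKM in Prp31_P18 and 119 ± 9.91 FPKM in w heads (limma adjusted p = 0.129), and cpx 72.2 ± 7.84 FPKM in Prp31_P18 and 88.7 ± 10.1 FPKM in w heads (0.165). With libraries scaled by these markers 3 members were called lower, Eh (log2 fold change -1.72, limma adjusted p = 9.67e-06), SIFa (-1.13, 0.00564) and Dh31 (-0.50, 0.0428), and 0 higher. That scaling gave 182 of all 8465 genes lower and 204 higher, and moved the median of all genes from -0.07 to 0.11. Of 7 glial markers 1 was called lower, beside 7.81% of all genes. Before adjustment limma had 3 lower and 0 higher at p under 0.05, with a median of -0.20. The called one was alrm, with 87.0 ± 1.82 FPKM in Prp31_P18 heads against 143 ± 24.4 FPKM in w heads. Without control replicate 3 there were 5 glial markers lower and 1 higher, beside 1383 and 838 of all 8465 genes. Without any 1 of the other libraries 0 glial markers were called.

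None of the 14 tested genes of the machinery that makes and releases the peptides was called, where 11.3% of all genes tested were. Of 16 processing and secretion genes 14 were tested and limma called 0, and before adjustment 1 was higher and 1 lower at p under 0.05. Their median was -0.07. 7B2, whose product is a helper of the convertase amontillado, had 262 ± 15.9 FPKM in Prp31_P18 and 306 ± 16.4 FPKM in w heads (limma adjusted p = 0.236). Pal2, an amidating enzyme gene, had 128 ± 18.7 FPKM in Prp31_P18 and 122 ± 5.04 FPKM in w heads (0.785), and the amontillado gene amon 12.4 ± 1.77 FPKM in Prp31_P18 and 13.7 ± 0.883 FPKM in w heads (0.432). Phm, the gene of the enzyme for the first amidation step, had 75.3 ± 5.27 FPKM in Prp31_P18 and 61.0 ± 0.174 FPKM in w heads, groups that did not overlap (log2 fold change 0.30, limma adjusted p = 0.0629). With median-ratio scaling Phm was called higher. Without control replicate 3 limma called 2 processing genes higher and 2 lower, beside 838 and 1383 of all 8465 genes. dimm, the gene of a transcription factor of neurosecretory cells, had 0.0920 ± 0.0182 FPKM in Prp31_P18 and 0.114 ± 0.0354 FPKM in w heads.

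Receptor transcripts were scarce, with 27 of 36 peptide receptor genes under 1 FPKM on average. Of the 9 tested limma called 0, beside 11.3% of all genes, and before adjustment 0 were higher and 1 lower at p under 0.05. Their median was -0.06, and without control replicate 3 AkhR was called higher. AkhR, the adipokinetic hormone receptor gene of fat body, was the most abundant, with 20.7 ± 1.02 FPKM in Prp31_P18 and 19.0 ± 6.75 FPKM in w heads. Lgr1, the receptor gene paired with Gpb5, followed with 4.70 ± 0.285 FPKM in Prp31_P18 and 4.05 ± 0.465 FPKM in w heads (log2 fold change 0.18, limma adjusted p = 0.255). The other receptors paired with called members were too low to test. SIFaR had 0.572 ± 0.120 FPKM in Prp31_P18 and 0.582 ± 0.0539 FPKM in w heads, Dh31-R 0.799 ± 0.120 FPKM in Prp31_P18 and 0.797 ± 0.0537 FPKM in w heads, and CapaR 0.134 ± 0.0485 FPKM in Prp31_P18 and 0.187 ± 0.0284 FPKM in w heads. The tachykinin receptor genes TkR99D and TkR86C had 0.660 ± 0.0297 and 0.346 ± 0.0410 FPKM in mutant heads, against 0.934 ± 0.0674 and 0.511 ± 0.0781 FPKM in control heads, and the leucokinin receptor gene Lkr had 0.160 ± 0.0155 FPKM in Prp31_P18 heads against 0.261 ± 0.0716 FPKM in w heads. In these 3 receptor genes every mutant value lay below every control value. The same held for 10 of the 36 receptor genes, or 27.8%, beside 20.3% of all 11836 genes, and 7 of the 10, such as TrissinR and CNMaR, are receptors of precursors that were not called or not tested.

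**Figure D5:**
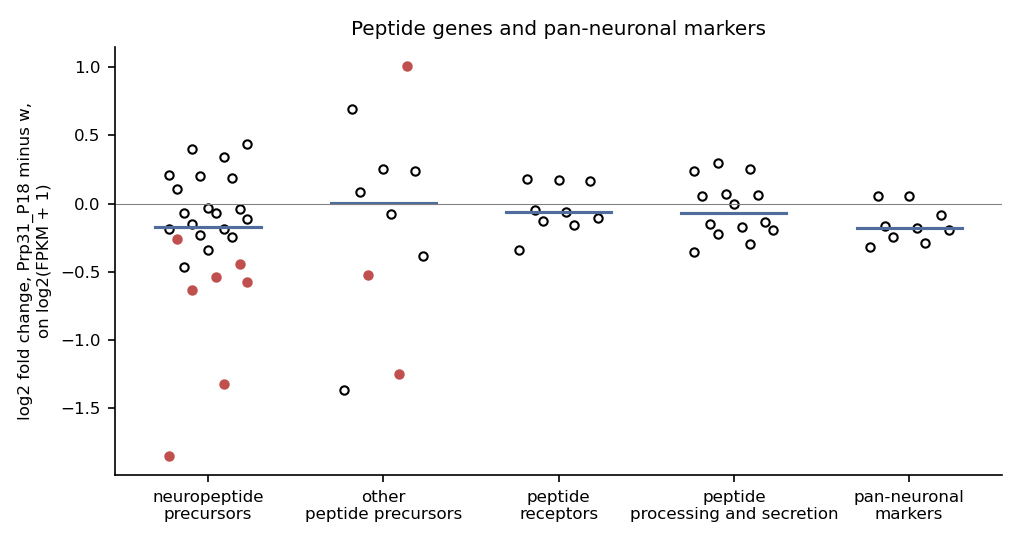
Log2 fold change of Prp31_P18 over w heads (vertical axis, on log2(FPKM + 1)) for tested genes of the neuropeptide precursors and 4 other lists; filled red points were called, and blue lines are list medians. The called genes are 7 precursors, all lower, and 3 other peptide precursors, of which Pdf is higher.

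Among 16 peptide precursors outside the 34, 14 had a row, 10 were tested, 1 was higher and 2 were lower, beside 3.53% and 7.81% of all genes, with a median of 0.01. Pdf, the clock neuron peptide gene, was the one that was higher, with 85.4 ± 7.19 FPKM in Prp31_P18 and 42.0 ± 1.56 FPKM in w heads (log2 fold change 1.00, limma adjusted p = 0.000616). The lower ones were the insulin-like peptide genes Ilp3, with 10.2 ± 0.962 FPKM in Prp31_P18 heads against 25.7 ± 3.92 FPKM in w heads (-1.25, limma adjusted p = 0.000950), and Ilp6, with 10.3 ± 0.596 FPKM in Prp31_P18 heads against 15.2 ± 1.42 FPKM in w heads (-0.52, limma adjusted p = 0.0102). These 3 calls held without any 1 library, while with pan-neuronal scaling Ilp6 was not called (limma adjusted p = 0.520) and Pdf and Ilp3 were. Without control replicate 3 there were 5 higher and 3 lower, beside 838 and 1383 of all 8465 genes.

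The called members did not share a position. Of the 34 genes 15 lie on 3R, 8 on 2L, 6 on 2R, 4 on 3L and 1 on X, and the 7 called are divided as 3 on 3R, 2 on 2L, 1 on 2R and 1 on 3L. The exon lengths of the 7 were between 526 and 1621 bases. Lk was the only called member on the arm of Prp31.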

How the data were processed

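The authors deposited 1 FPKM table, with a column for each library. Per the labels' protocols, libraries were strand-specific, amplified over 15 cycles and read as 75 base single reads. The submitters' processing notes name CASAVA 1.8, STAR 2.5.2b and build BDGP6. Not given in the sources used here are the tool for FPKM, the annotation release and the use of strand. Gene positions and exon lengths come from an Ensembl annotation of the same assembly name. Nplp2 was placed by symbol, the others by identifier.

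FPKM are not counts, so limma 3.58.1 under R 4.3.3, with a variance trend, was fitted to log2(FPKM + 1) of the 8465 genes whose mean reached 1 FPKM, and adjusted by Benjamini-Hochberg. Depth was estimated from single-transcript genes, as the number of reads at which low values lay nearest to whole reads by a mean cosine score. Of these values 36.0% to 45.5% came within 0.1 of a whole read, where chance gives 20%, so read numbers are approximate and cover no PCR duplicates. Members and lists were chosen with earlier results of these data known. Members that were called, did not overlap between groups or were among the most abundant 6 are given in every library. Values of other members are given as means or ranges, and Nplp4, Crz and CCHa2 by library after their values were seen. Of the 115 symbols in the other lists 8 had no match and 6 were matched by gene identifier. Alternatives were a pseudocount of 0.1, a bound of 5 FPKM or none, scaling by median ratios, quantiles or pan-neuronal markers, library weights, a block for the replicate number, a covariate averaging the log2 values of Yp1, Yp2 and Yp3, and each library left out. The yolk protein covariate was 12.4 to 13.9 in mutant libraries, against 10.1, 10.2 and 12.6 in control replicates 1, 2 and 3. A fit with it therefore cannot fully separate it from genotype. Same-numbered mutant and control libraries had deviations correlated at -0.01, 0.21 and 0.32, and the numbers were not used as pairs.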

Additional observations from a re-analysis of the deposited data

How the results depend on the processing

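Eh and SIFa kept their calls in all alternatives in which they were tested, 14 and 15. With the replicate number as a block 6 members were called lower, all but Gpb5 (limma adjusted p = 0.0757), and 406 and 736 of all genes were higher and lower. The labels give the numbers no meaning, and not every library correlated best with its own number. A filter of 5 FPKM left 19 members, of which 2 were lower, beside 417 of the 6145 genes then tested. With pan-neuronal scaling 3 members, 1 other peptide precursor and 182 of all genes were lower. With the yolk protein covariate 4 members were lower, Eh, SIFa, Mip and CCHa2, with 1 processing gene higher, and 181 and 310 of all genes higher and lower. With library weights, which gave 1128 genes higher and 2170 lower, 4 members were higher and 10 lower, adding FMRFa, ITP and sNPF, as were 4 and 3 other precursors, 3 and 1 receptors, and 2 and 5 processing genes. With no filter 1 receptor was lower, and with median-ratio scaling 1 processing gene was higher. Members called lower were 5 with no filter, with median-ratio scaling and with quantile scaling, each time all but Lk and Gpb5. Median-ratio and quantile scaling gave 360 and 384 genes higher and 454 and 467 lower, beside 299 and 661. No filter gave 331 higher and 690 lower of 11835 genes. With 1 library left out, all genes higher were 144 to 838 and lower 268 to 1383, members 0 to 3 and 3 to 8, other precursors 1 to 5 and 2 to 3, receptors 0 to 1 higher, and processing genes 0 to 2 in each direction. All upper ends were those without control replicate 3. The called genes named in the text kept their sign in every alternative, and these genes without a call reversed theirs. With median-ratio scaling NPF had 0.025, Ms 0.0088, Nplp4 0.040 and Prp31 0.052. With quantile scaling NPF had 0.028, AstC 0.00027, Nplp4 0.032 and Prp31 0.035. With pan-neuronal scaling NPF had 0.14, AstA 0.054, Ms 0.13, AstC 0.11, Nplp4 0.16, amon 0.048, Prp31 0.17 and Start1 0.028. With library weights NPF had 0.044, Ms 0.0066 and Prp31 0.0067. With the yolk protein covariate CCHa2 had -0.62, Dsk -0.0085, Nplp2 -0.42, Nplp4 0.38, Ilp2 -0.12 and AkhR -0.36. With 1 library left out NPF had -0.13 to 0.062, CCHa2 -0.029 to 0.52, Ms -0.11 to 0.016, Nplp4 -0.23 to 0.14 and Pal2 -0.036 to 0.17. The cause of these changes was not tested. Counts of a few reads limit Burs, Pburs, Akh, RYa and amn.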

Other observations

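Genes that the insulin-producing cells of the pars intercerebralis are known to transcribe differed in the direction of their group means. Ilp3 was lower in Prp31_P18 heads, as given above. Ilp2 had 95.7 ± 4.47 FPKM in Prp31_P18 and 82.2 ± 23.5 FPKM in w heads (log2 fold change 0.25, limma adjusted p = 0.401), and Ilp5 had 27.8 ± 2.34 FPKM in Prp31_P18 and 17.7 ± 7.36 FPKM in w heads (log2 fold change 0.70, limma adjusted p = 0.119). These values turn on control replicate 3: without it both were called higher, Ilp2 at 0.47 (limma adjusted p = 0.00417) and Ilp5 at 1.00 (0.00165), while with the yolk protein covariate they were at -0.12 and 0.09 and not called. Dsk, also made there, was at 0.34 on the log2 scale (limma adjusted p = 0.236), and it too was called higher without control replicate 3, as given above. Whether Ilp3 differs from the others in its response was not tested. Nplp3, a neuropeptide-like precursor gene, had 3318 ± 755 FPKM in Prp31_P18 and 9022 ± 3611 FPKM in w heads, groups that did not overlap (log2 fold change -1.37, limma adjusted p = 0.0765). Its size too turned on control replicate 3, with 11447, 10748 and 4873 FPKM in control replicates 1, 2 and 3. The log2 difference was -1.76 against control replicates 1 and 2 and -0.58 against control replicate 3.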
